A study of Mus musculus with 17 samples.

Results

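The baseline transcriptome of hematopoietic stem and progenitor cells (HSPC) was described in the libraries of mice that had received only phosphate-buffered saline (PBS). These are 5 of the 17 polyadenylated RNA libraries of the study, chosen by their label as PBS controls of Day 0 and numbered 1 to 5 as in the titles. Flow cytometry was used to sort the cells from bone marrow of wild-type C57BL/6J mice, an inbred laboratory strain, after an intraperitoneal injection. The other 4 groups hold 3 libraries each. They are lipopolysaccharide (LPS, a bacterial cell wall component) at 24 h, LPS plus an IL-10R blocking antibody (against the receptor of interleukin-10) at 24 h, and the same pair of treatments at 72 h. These 12 libraries are called the challenged groups here, and they serve only to show where the baseline differs. The surface markers of the sort gate, the age of the mice, and the interval between the PBS injection and the harvest of the Day 0 libraries are not given in the sources used here. The labels do not say whether the 5 libraries come from separate mice, so a spread or a p-value measures only the differences between these libraries.

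HSPC are the immature cells of the bone marrow from which all blood cells are formed. Most stem cells rest, whereas progenitors divide, and both express low levels of genes of several mature lineages at once, which is called lineage priming. Transcription factors such as those of the SCL, GATA, HOX and RUNX families keep the stem cell state, and factors such as PU.1, C/EBP-alpha, GATA-1 and PAX5 direct cells to the myeloid, erythroid and B-lymphoid lineages. Receptors for cytokines set which signals from the marrow the cells can receive.

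The 5 PBS libraries held 11879018 to 15597602 counts, and 18103 to 18778 genes had at least 1 count in a library. Of the 35321 genes in the table, 14572 had a count of 0 in all 5 libraries. Levels are given as CPM, the count of a gene per 1000000 counts of its library, after scaling by trimmed mean of M-values (TMM), as mean ± SD over 5 libraries. Where genes are compared with each other, CPM was divided by the length of the gene's exons in kb. A mean of at least 1 CPM was reached by 13904 genes, of at least 10 CPM by 9999, of at least 100 CPM by 2155 and of at least 1000 CPM by 87. No pair of libraries agreed within sampling noise, since the chi-square statistic per gene ran from 14.0 to 39.1 over the 10 pairs. The 13 mitochondrially encoded genes are listed at 0 in each library. Xist was present in all 5 libraries, and the Y-linked genes Ddx3y, Uty, Kdm5d and Eif2s3y had a count of 0 in each of them. The labels give no batch.

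The label was checked against markers of HSPC. Of 15 surface markers in the table, 13 reached a mean of 10 CPM. They included Kit, the receptor for stem cell factor, at 399 ± 60.7 CPM, Cd34 at 690.0 ± 77.2 CPM, and Flt3, a receptor of multipotent progenitors, at 445 ± 84.7 CPM. Ly6a, which encodes the Sca-1 antigen, stood at 61.6 ± 24.3 CPM. Slamf1, which encodes the stem cell antigen CD150, was low at 3.08 ± 0.63 CPM. Of 25 transcription factors of stem and progenitor cells, all reached 1 CPM and 23 reached 10 CPM. Markers of mature cells were also present, as described below, and the single cells that carried them cannot be told from these bulk libraries.

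The most abundant transcripts were those of protein synthesis. By mean CPM, which is not divided by gene length, Eef1a1, a translation elongation factor, ranked first at 15385 ± 1080.5 CPM. Mpo ranked second at 5404 ± 3458 CPM. It encodes myeloperoxidase, an enzyme of neutrophil granules. Eef2 followed at 3682 ± 379 CPM, the chaperone Hsp90ab1 at 3599 ± 490 CPM, and Rpsa at 3541 ± 370.2 CPM. The rest of the first 20 were Rpl4, the chaperone Hspa8, Rplp0, Rps3a1, Rpl3, Actb, Rps4x, Rps3, Rps24, Ptma, Rps6, Rack1, Rps9, Rplp1 and Pabpc1. Of these 20, 11 are cytosolic ribosomal protein genes, and Mpo was the only gene among them that marks a blood lineage. The 10 most abundant genes of each library held 4.43% to 5.65% of its counts, and the 1000 most abundant held 47.4% to 49.98%.

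Ranked by CPM per kb, Eef1a1 remained first at 6171 ± 433, followed by Rplp1 at 3864 ± 509 and Rps3a1 at 2712 ± 245. B2m, the light chain of MHC class I, stood at 1787 ± 297 CPM per kb, and Mpo held rank 10 at 1578 ± 1010.0. The first 20 by CPM and by CPM per kb had 10 genes in common. Mpo differed from the other leading genes in its spread. It stood at 4182, 2925, 7878, 10099.9 and 1936 CPM in libraries 1 to 5, a range of 5.22-fold, whereas Eef1a1 stood at 15069.8, 15870.0, 14426, 17025 and 14533 CPM, a range of 1.18-fold.

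Among the transcription factors of stem and progenitor cells, those shared by stem cells and their progeny were the most abundant per length. Lmo2, a bridging factor of the SCL complex, led with 181 ± 22.9 CPM per kb, followed by Zfp36l2, an RNA-binding regulator, with 136 ± 14.5. Lyl1 stood at 82.0 ± 8.7, Ikzf1, which encodes Ikaros, at 66.4 ± 4.6, Etv6 at 64.2 ± 7.9, and Myb, which progenitors need to divide, at 62.0 ± 6.4 CPM per kb. Neighbours from Ikzf1 to Myb in this order did not differ beyond their spread. Nfe2 stood at 55.3, Erg at 36.3, Fli1 at 24.5, Tal1 at 17.6 and Gata2 at 12.5 CPM per kb. Hlf, a factor of long-term stem cells, stood at 20.2 ± 6.1 CPM per kb, and Meis1 and Runx1 stood at 9.57 ± 2.35 and 9.52 ± 0.67. Mecom, which encodes the stem cell factor EVI1, and Prdm16 lay near the lower end with 2.17 ± 0.77 and 1.53 ± 0.50 CPM per kb. Hoxa9 stood at 8.39 and Hoxb4 at 1.92 CPM per kb.

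These factors differed in how much they varied between libraries, and the variable ones did not share 1 order. Nfe2 stood at 165, 160.1, 161, 178 and 163 CPM in libraries 1 to 5, and Runx1 at 113, 108, 123, 105 and 122 CPM. The range was 1.11-fold for Nfe2 and 1.17-fold for Runx1. Hlf stood at 159.9, 131, 114, 82.7 and 189 CPM, and Mecom at 29.5, 27.6, 21.8, 15.3 and 40.9 CPM. Meis1 stood at 99.4, 100.2, 96.1, 69.4 and 139 CPM. Gfi1b, a transcriptional repressor that acts within the erythroid and megakaryocyte lineages, had the highest SD of the 25 (0.59). It stood at 62.1, 25.9, 28, 31.1 and 20.5 CPM, highest in library 1 and lowest in library 5. Gfi1, a transcriptional repressor that acts within the granulocyte lineage, was next with an SD of 0.53. Its levels were 46.9, 37.4, 72.4, 64.3 and 29.2 CPM, highest in library 3 and lowest in library 5. Library 5 was instead the highest and library 4 the lowest for Hlf, Mecom, Meis1 and Prdm16. Of the 25 factors, 15 were highest in library 5 and 14 were lowest in library 4, whereas among all 9999 genes at 10 CPM or more 21.3% were highest in library 5 and 18.5% were lowest in library 4. The summed level of the 25 factors was nearly flat, with 3659.7, 3466, 3469, 3294 and 3889 CPM in libraries 1 to 5.

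**Figure D1:**
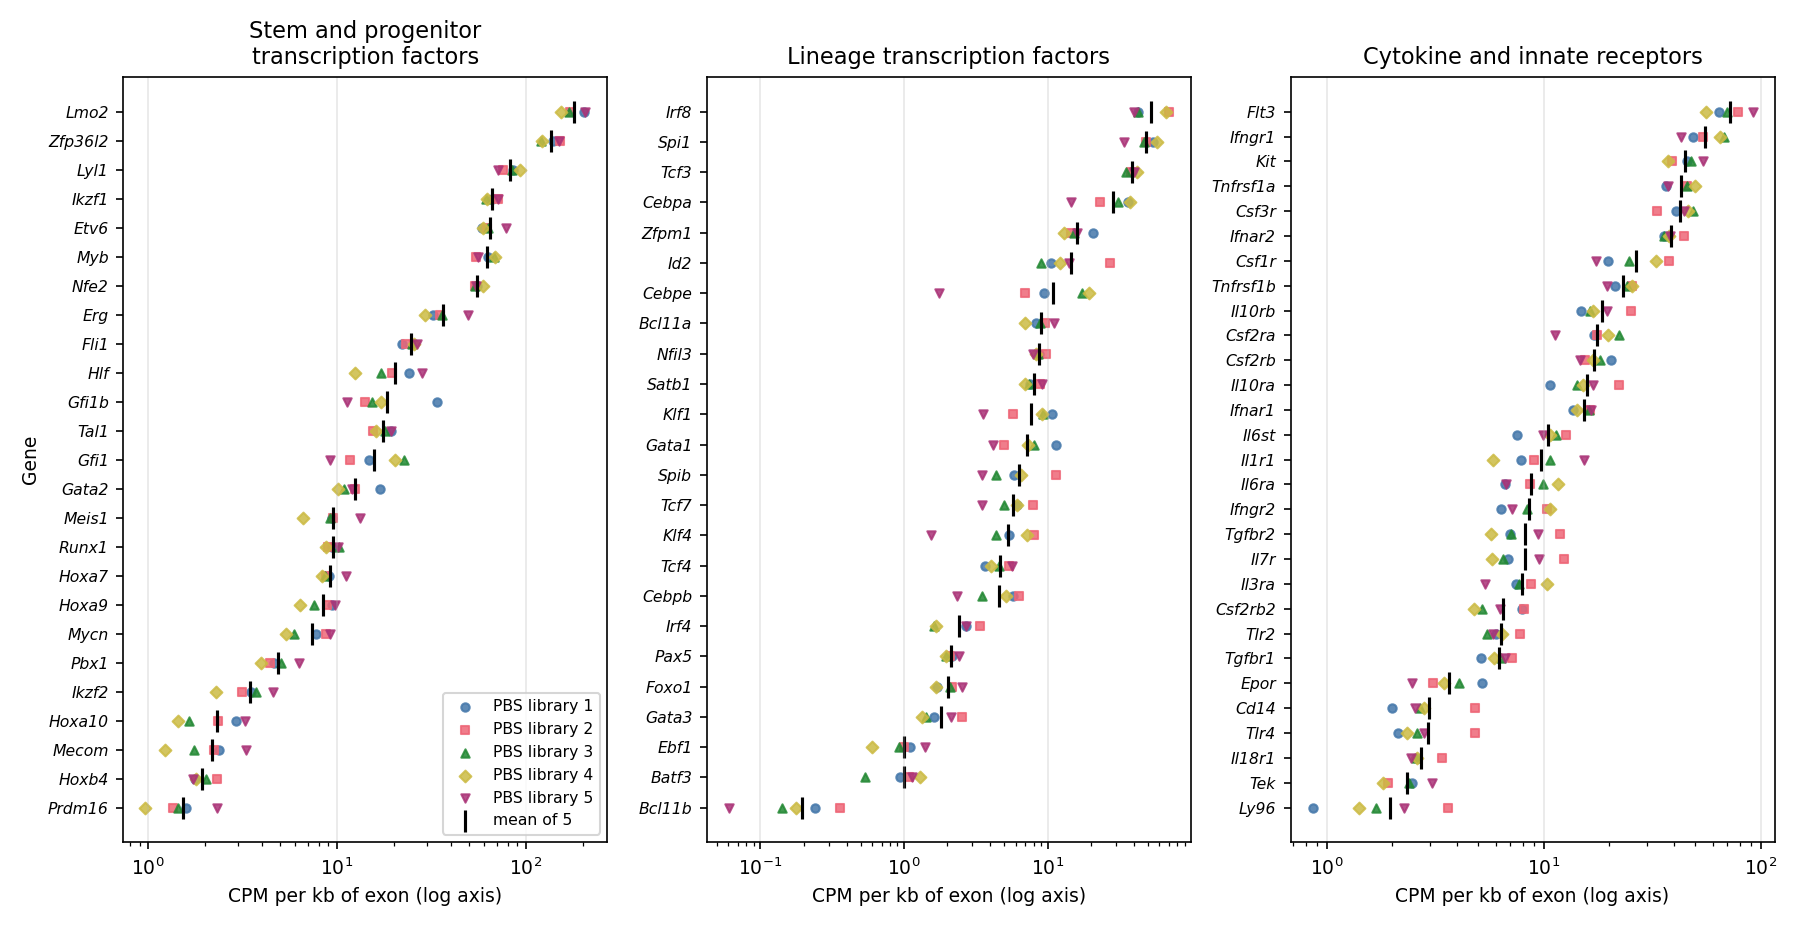
Level of each gene in each PBS library, in CPM per kb of exon on log axes, for transcription factors of stem and progenitor cells (left), lineage transcription factors (middle) and cytokine and innate receptors (right); symbols are the 5 libraries and vertical bars their means. Lmo2, Irf8 and Flt3 lead their panels at 181, 52.4 and 72.1 CPM per kb, and the libraries of most genes lie close together; 1 receptor is not drawn.

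Per length, lineage transcription factors were led by those of myeloid cells. Irf8, a factor of monocytes and dendritic cells, stood at 52.4 ± 14.6 CPM per kb, and Spi1, which encodes PU.1, at 48.1 ± 8.88. Tcf3, which encodes the E proteins of early lymphoid cells, followed at 38.7 ± 2.4, and Cebpa, a factor of granulocyte and monocyte progenitors, at 28.4 ± 9.59 CPM per kb. Not divided by length, the means of Tcf3 (156 CPM) and of the lymphoid factor Satb1 (152 CPM) were above that of Spi1 (130 CPM). The exons of Satb1 span 19.0 kb and those of Spi1 2.7 kb. The erythroid factors Klf1 and Gata1 stood at 7.71 ± 2.95 and 7.17 ± 2.84 CPM per kb. The B-cell factors Pax5 and Ebf1 were lower, at 2.12 ± 0.19 and 1.00 ± 0.29, and the T-cell factor Bcl11b was the lowest of the 24, at 0.196 ± 0.11 CPM per kb. By library, Irf8 stood at 302, 494, 302, 469.6 and 281 CPM, so libraries 2 and 4 were the high ones. Cebpa stood at 95.7, 61, 80.9, 98.8 and 38.5 CPM and was lowest in library 5. Gata1 stood at 27.7, 12.1, 19.5, 17.8 and 10.2 CPM and was highest in library 1.

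Receptors of early progenitors and of interferon and tumor necrosis factor were the most abundant per length among 30 cytokine and innate receptors. Flt3 stood at 72.1 ± 13.7 CPM per kb, Ifngr1, a chain of the interferon-gamma receptor, at 55.7 ± 10, and Kit at 44.7 ± 6.81. Tnfrsf1a stood at 43.0 ± 5.8, and Csf3r, the receptor of granulocyte colony-stimulating factor, at 42.7 ± 6.0 CPM per kb. Csf1r, the receptor of macrophage colony-stimulating factor, stood at 26.6 ± 8.6 CPM per kb. The erythropoietin receptor Epor was low at 3.66 ± 1.0 CPM per kb. All 30 receptors reached 1 CPM and 27 reached 10 CPM.

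The receptors that the study's treatments address were present in the PBS libraries. Il10ra, the ligand-binding chain of IL-10R, stood at 37.6, 78, 49.9, 53.1 and 59.3 CPM in libraries 1 to 5, or 15.9 ± 4.23 CPM per kb, and the shared chain Il10rb at 18.6 ± 4.1 CPM per kb. Tlr4, the LPS receptor, stood at 11.9, 26.9, 14.4, 13.1 and 15.6 CPM, or 2.95 ± 1.09 CPM per kb. Its partner Ly96, which encodes MD-2, stood at 0.879, 3.69, 1.72, 1.44 and 2.31 CPM, and Cd14 at 5.15 CPM on average. All of Il10ra, Tlr4 and Ly96 were highest in library 2 and lowest in library 1. Library 2 was also the highest, and library 1 the lowest, for the markers of resident macrophages given below, and the part of such cells in these receptor levels was not tested.

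Among 15 receptors of the niche and of homing, Adgrg1, an adhesion receptor of stem cells, led with 189 ± 24.8 CPM per kb. Cxcr4, which holds HSPC in the marrow, followed with 88.1 ± 16, and Selplg, a ligand of adhesion molecules of the vessel wall, with 66.5 ± 11 CPM per kb. The integrin chain Itgb1 and the hyaluronan receptor Cd44 had SDs of only 0.05 and 0.06 on the scale of log2(CPM + 0.5). Cd44 stood at 223, 248, 239, 240.0 and 248 CPM. Cdh2 was near the limit of detection at 0.478 CPM. In this list too, library 5 was the highest for 10 of 15 members. The surface markers of HSPC showed the same order, with 9 of 15 highest in library 5 and 11 of 15 lowest in library 4. In bulk libraries, fewer cells of a type and less RNA per cell cannot be told apart.

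Per length and by the mean of 5 libraries, the highest lineage genes were of the neutrophil program, followed by early lymphoid and monocytic genes. Neutrophil genes varied strongly between libraries, as given below, so this order need not hold in each library. Whether the transcripts of lineage genes came from primed HSPC or from more mature cells in the sort was not tested. Primary granules are made in promyelocytes. Among the 5 genes of the primary granule set, Mpo stood at 1578 and Elane (neutrophil elastase) at 963 CPM per kb. Ctsg (cathepsin G) stood at 692, Prtn3 (proteinase 3) at 555 and Ms4a3 at 122 CPM per kb. Ms4a3 encodes a membrane protein and not a granule constituent. Dntt, the terminal transferase of lymphoid progenitors, stood at 341 ± 65.2 CPM per kb. Cst3, Lyz2 and Cd74, genes of monocytes and dendritic cells, stood at 298 ± 65, 289 ± 247 and 216 ± 68. Jchain, the joining chain of secreted immunoglobulin, stood at 244 ± 149 CPM per kb. Car2 and Car1, carbonic anhydrases of erythroid progenitors, stood at 125 ± 18.8 and 91.8 ± 48.4. Prg2, a granule protein of eosinophils, stood at 143 ± 65.5, and Prss34, a protease of basophils, at 74.7 ± 42 CPM per kb. Among megakaryocyte genes, Pf4 stood at 36.7 ± 18.5 CPM per kb.

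These lists differed in how evenly the 5 libraries carried them. The 14 lymphoid priming genes summed to 2548, 3109, 2576, 2338 and 3178 CPM in libraries 1 to 5, a range of 1.36-fold. Dntt stood at 709, 937, 730.2, 598 and 935 CPM, and 8 of the 14 members were highest in library 5 and 10 lowest in library 4. The 15 megakaryocyte genes summed to 559, 514, 493, 439 and 529 CPM, a range of 1.27-fold. The 20 erythroid genes summed to 1195, 735, 1008, 829.7 and 819.7 CPM, and 11 of them were highest in library 1. Car1 stood at 176, 68.5, 165, 126 and 37.1 CPM, whereas Car2 stood at 363, 261, 310.4, 254 and 323 CPM and did not follow it. The 13 genes of mast cells, basophils and eosinophils summed to 665, 551, 392, 593 and 235 CPM, and 11 of them were lowest in library 5.

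Markers of more mature lymphoid cells were present at low levels. The 16 B-lymphoid markers summed to 277, 319, 231, 233 and 300.4 CPM, and Pax5 stood at 19.3, 18.6, 17.5, 17.3 and 21.5 CPM, an SD of 0.12 on the log2 scale. The 8 plasma cell markers in the table summed to 853, 1440.4, 486, 458 and 941 CPM. Most of this was Jchain, with 597, 1178, 303, 250.2 and 745 CPM. Markers of T and natural killer cells summed to 198 to 379.7 CPM, of which Nkg7 held 75.7 to 235 CPM. Cd3e, the signalling chain of the T-cell receptor complex, stood at 0.421 to 3.19 CPM. Of 12 stromal and endothelial markers, 2 reached 10 CPM (Pecam1 and Emcn, which are not restricted to those cells), and Pdgfra had a count of 0 in all 5 libraries.

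Genes of cell division were abundant. Top2a stood at 619, 655, 852, 823 and 818 CPM, and Mki67, the proliferation antigen, at 628, 780.0, 1042, 774 and 908 CPM. The 16 genes of the G2 and M phases summed to 2788, 3027, 3968, 3851 and 3324 CPM, a range of 1.42-fold. Of these, 11 were highest in library 4 and 5 in library 3, and 8 were lowest in library 1. Of 15 genes linked to quiescence, Txnip led with 125 ± 25 CPM per kb, and Cdkn1c, which encodes the cell cycle inhibitor p57, was low with 1.76, 2.99, 1.78, 1.25 and 3.37 CPM. Cdk6 stood at 509, 477, 727, 636 and 735 CPM.

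**Figure D2:**
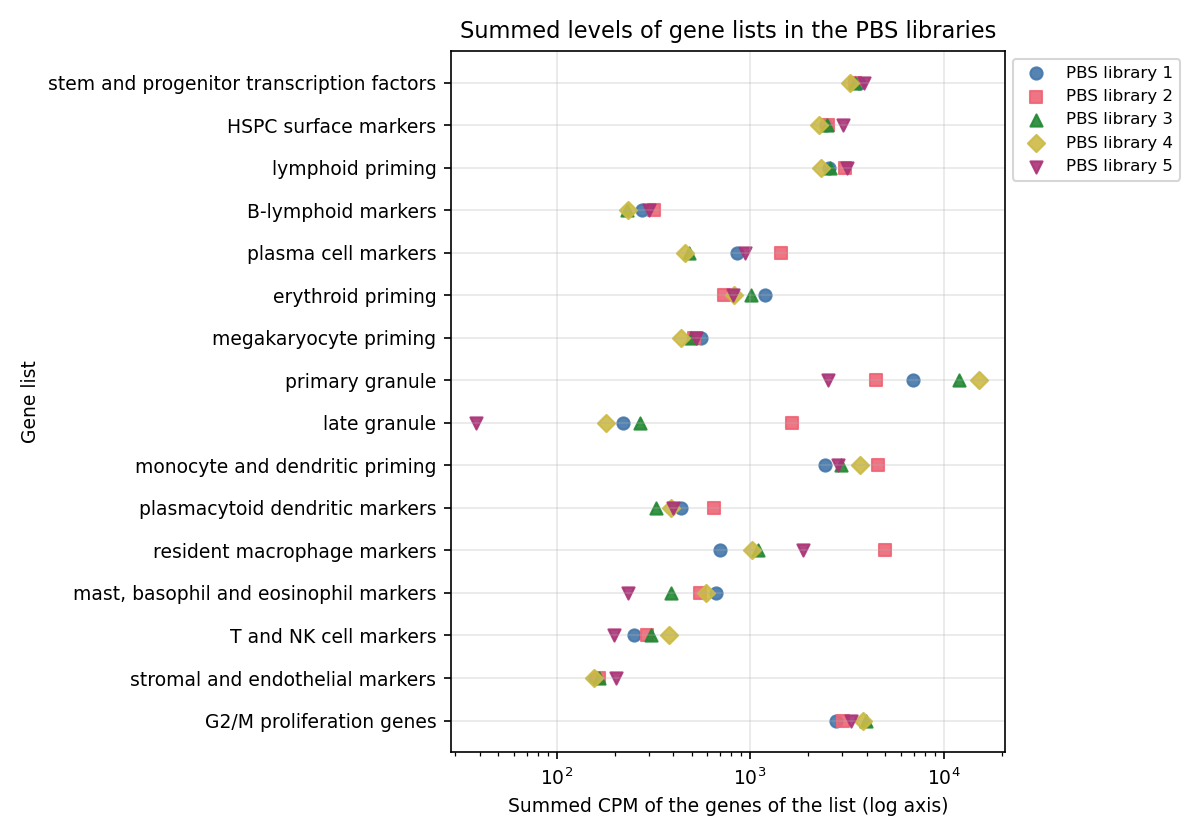
Summed CPM of the genes of each list in each of the 5 PBS libraries, on a log axis. Transcription factors, surface markers and lymphoid priming genes lie within a narrow range, whereas late granule genes span 38.4 to 1650.4 CPM, primary granule genes 2527 to 15309 CPM and resident macrophage markers 700.3 to 4957 CPM.

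Variation among the 5 libraries was measured as the SD of log2(CPM + 0.5) over the 9999 genes with a mean of at least 10 CPM. The median SD was 0.16 (quartiles 0.11 and 0.22), and the median ratio to the SD that counting alone would give was 2.90. Only 383 genes (3.83%) varied less than counting error. An SD above 1 was found for 88 genes (0.880%). Of these 88, 52 were highest in library 2, 22 in library 4, 8 in library 3, 5 in library 1 and 1 in library 5, and 43 were lowest in library 1 and 40 in library 5. Most followed one of a pair of patterns: 41 genes were highest in library 2 and lowest in library 1, with library 5 second for 40 of them, and 27 were highest in library 3 or 4 and lowest in library 5. Without library 2, 58 genes had an SD above 1, of which 42 were among the 88.

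The fixed lists held 36 of the 88 genes, and 15 of these were resident macrophage markers and 14 were genes of the neutrophil list. None of the 25 stem and progenitor factors, 15 surface markers or 30 receptors exceeded an SD of 1. On the first principal component of the genes at 10 CPM or more, which held 46.2% of the variance, libraries 2 and 5 scored 19.0 and 18.7, and libraries 1, 3 and 4 scored -12.2, -7.41 and -18.1. The second component, with 28.9%, set library 2 at 19.0 apart from library 5 at -17.2.

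**Figure D3:**
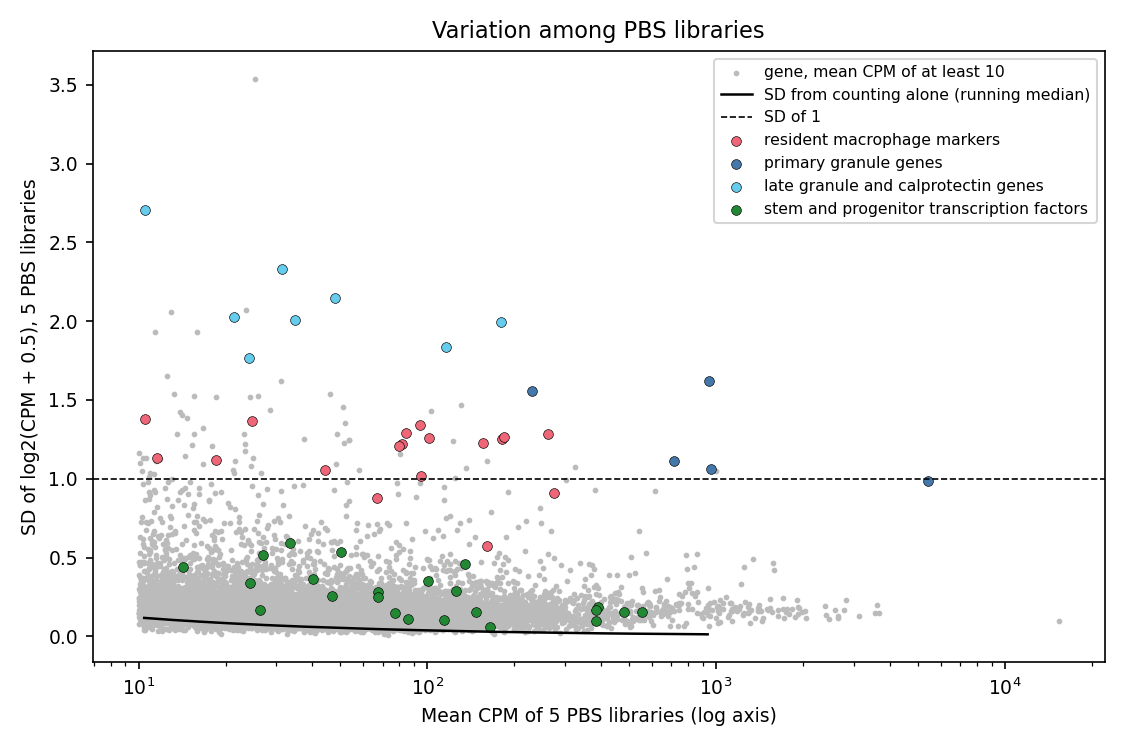
SD of log2(CPM + 0.5) over the 5 PBS libraries against mean CPM (log axis) for the 9999 genes with a mean of at least 10 CPM; the solid line is the SD from counting alone and the dashed line an SD of 1. Resident macrophage markers and granule genes lie mostly above the dashed line, with up to 2.71 for Retnlg, and stem and progenitor transcription factors lie below it.

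An immunoglobulin segment, genes of neutrophil granules and inducible heat shock genes were at the head of the most variable genes. In order of falling SD, the first 25 were Igkv4-62, Retnlg, Ltf, Ngp, Hspa1b, Hspa1a, Camp, Chil3, S100a9, Fcnb, Dmkn, S100a8, Lcn2, Mgl2, Mgam, Elane, Ms4a3, 2010309G21Rik, Fn1, Prom1, Trem3, Cldn15, Sgms2, Hp and Thbs1. Their SDs ran from 3.54 (Igkv4-62) to 1.46 (Thbs1), and the next genes were Ccr3 with 1.44, Fcna with 1.43 and Slc15a2 with 1.42. Of these 25, 10 remained without library 5 and 17 without library 2. With a floor of 1 CPM in place of 10, or ranked by the coefficient of variation, 12 remained in each case.

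**Figure D4:**
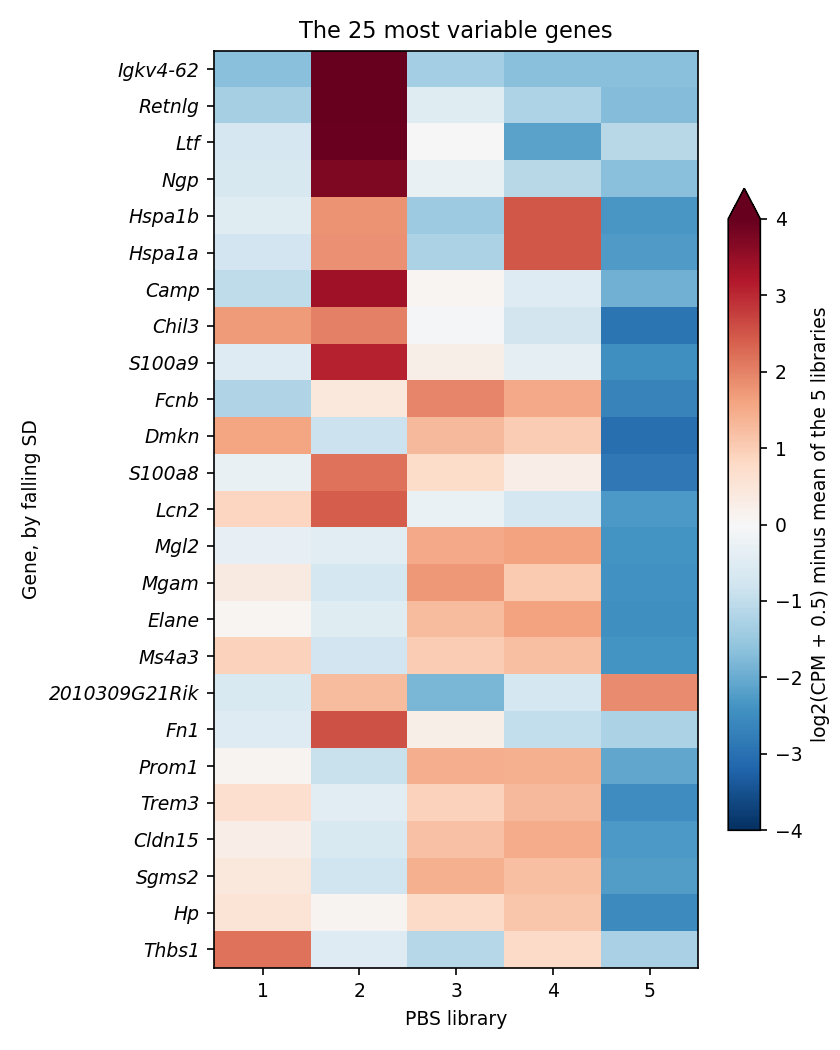
Difference of log2(CPM + 0.5) from the mean of the 5 PBS libraries for the 25 most variable genes, in order of falling SD; red is above and blue below the mean, and the colours end at 4. Library 2 is darkest red for Igkv4-62, Retnlg, Ltf and Ngp, and library 5 is blue for Elane, Ms4a3 and Hp.

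Of 18 neutrophil genes, 9 were highest in library 2, 6 in library 4 and 3 in library 3, and 16 were lowest in library 5. They are described here as 5 primary granule genes and 9 late granule and calprotectin genes, with Cebpe, Gfi1, Csf3r and Fcnb in neither set. Ms4a3 is counted in the primary granule set although it does not encode a granule protein. These sets were made after the values had been seen, so the library in which each set is highest restates that choice. Elane stood at 667, 452, 1542, 1959 and 117 CPM in libraries 1 to 5, a 16.8-fold range. Prtn3 stood at 1046, 556, 1262, 1671 and 267 CPM, Ctsg at 746, 437, 1015, 1202 and 177 CPM, and Ms4a3 at 312, 95, 333, 377 and 30.6 CPM. These genes and Mpo were highest in library 4 and lowest in library 5. Together they summed to 6954, 4465, 12030.2, 15309 and 2527 CPM, a 6.06-fold range that was the same without library 2. Within this range, the transcription factors Hlf and Mecom had the opposite end points, with library 5 highest and library 4 lowest, and Cebpa shared those of the granule genes.

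Genes of late granules, together with the calprotectin genes, were highest in library 2. Ltf, which encodes lactoferrin, stood at 5.15, 139, 8.37, 1.56 and 3.72 CPM, Ngp at 9.6, 207, 12.3, 6.7 and 4.42 CPM, and Retnlg at 0.251, 51.3, 0.86, 0.313 and 0.0701 CPM. The values of Retnlg outside library 2 rest on few counts. S100a9, a calprotectin chain, stood at 55.5, 674, 92.9, 61.8 and 14.2 CPM, and S100a8, the other chain, at 56, 313, 117, 83.1 and 9.25 CPM. The 9 genes summed to 219.9, 1650.4, 271, 181 and 38.4 CPM, a 43.0-fold range that fell to 7.04-fold without library 2. The sum of the primary granule genes in library 2 was the fourth of 5. Gm11505, an annotated antisense transcript within Mpo, stood at 816, 526, 1415, 1919 and 318 CPM. Whether strand was used in counting is not given in the sources used here, so its reads and those of Mpo cannot be told apart.

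The 250 bases before the RefSeq transcription starts of these genes were searched for binding motifs on both strands. The sequences come from RefSeq promoters of build GRCm38.p6, and 32851 promoters were searched in all. The motif GAGGAAGT, which PU.1 binds, was found in 3 of 5 primary granule promoters (Mpo, Elane and Prtn3) and in 2.44% of all promoters. The motif TTGCNCAA, which C/EBP factors bind, was found in 4 of 9 late granule promoters (Ltf, Ngp, Lcn2 and Mmp8) and in 2.61% of all promoters. GAGGAAGT was also found in Mmp8 and S100a8, and TTGCNCAA in none of the 5 primary granule promoters. In the whole neutrophil list, GAGGAAGT and TTGCNCAA were each found in 5 of 17 promoters, the latter also in Fcnb. Both granule sets were made after the levels had been seen, so a difference in motifs between them was not tested. No searched motif is contained in another. A match is a description of letters and not a measured binding site. The 5 promoters below are shown because their genes had contrasting levels in libraries 2 and 4 and the match lies before the first exon. Each is printed 5′ to 3′ on the strand of the gene up to that exon in GENCODE M21, with the matched motif in capitals.
Mpo: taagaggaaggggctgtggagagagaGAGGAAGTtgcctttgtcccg
Elane: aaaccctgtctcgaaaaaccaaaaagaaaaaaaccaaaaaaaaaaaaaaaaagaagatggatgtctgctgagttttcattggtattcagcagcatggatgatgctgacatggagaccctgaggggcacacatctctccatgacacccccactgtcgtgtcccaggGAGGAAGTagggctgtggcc
Prtn3: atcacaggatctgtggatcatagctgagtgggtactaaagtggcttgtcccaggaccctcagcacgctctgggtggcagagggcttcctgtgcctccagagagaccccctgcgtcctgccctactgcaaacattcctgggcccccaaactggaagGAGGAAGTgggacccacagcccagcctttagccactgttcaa
Ltf: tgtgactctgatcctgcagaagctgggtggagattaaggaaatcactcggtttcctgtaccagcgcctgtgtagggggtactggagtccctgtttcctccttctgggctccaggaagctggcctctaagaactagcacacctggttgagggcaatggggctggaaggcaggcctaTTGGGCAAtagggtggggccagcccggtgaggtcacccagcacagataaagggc
Ngp: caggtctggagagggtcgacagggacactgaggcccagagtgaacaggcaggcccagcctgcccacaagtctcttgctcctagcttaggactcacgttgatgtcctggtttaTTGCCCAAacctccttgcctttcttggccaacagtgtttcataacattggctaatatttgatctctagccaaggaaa
The stretch shown for Mpo lies at chr11:87793534-87793580 on the plus strand, Elane at chr10:79886062-79886246 plus, Prtn3 at chr10:79879417-79879613 plus, Ltf at chr9:111019042-111019270 plus and Ngp at chr9:110419558-110419746 plus. The annotations place the starts differently, and the first exon in GENCODE M21 begins before the RefSeq start by 203 bases in Mpo, 65 in Elane, 53 in Prtn3, 21 in Ltf and 61 in Ngp. A further noncoding GENCODE transcript of Prtn3 starts farther upstream. The first base of GAGGAAGT lay 21 bases before that exon in Mpo, 20 in Elane and 42 in Prtn3. That of TTGCNCAA lay 54 bases before it in Ltf, where the match is on the opposite strand and the capitals read as its reverse complement, and 77 in Ngp. A second match in Ngp and the match in Lcn2 lie within GENCODE exons and are not shown. For comparison, AGATAA, which GATA factors bind, was found in 4 of 16 erythroid promoters and in 9.99% of all. It was also found in 3 of 9 late granule promoters (Ltf, S100a9 and Chil3) and in none of the 5 primary granule promoters. The AGATAA of Ltf lies in the stretch shown and is printed there in small letters. CAGCTG, an E-box that reads the same on both strands, was found in 3 of 13 B-lymphoid promoters and in 13.001% of all.

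Markers of resident macrophages varied with library 2. All 19 of them were highest in library 2 and 18 were lowest in library 1. Vcam1, an adhesion molecule of marrow macrophages and stroma, stood at 64.6, 680.4, 158, 122 and 288 CPM in libraries 1 to 5. C1qa and C1qc, chains of complement C1q, stood at 22, 264, 43.8, 48.1 and 93.9 CPM and at 23.9, 239, 35.5, 41.1 and 80.7 CPM. Cd5l stood at 24.9, 219, 37.1, 41.4 and 74.9 CPM. The 19 markers summed to 700.3, 4957, 1097, 1024 and 1887 CPM, so that library 2 was 7.08-fold above library 1. Without library 2 the range was 2.69-fold, with library 5 highest, and none of the 19 had an SD above 1. None of the 19 was at 0 in all PBS libraries. Of 13 of these genes with a promoter in the table, 1 held GAGGAAGT (C1qc), 1 held CAGCTG (Cd68) and none held TTGCNCAA or AGATAA.

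A further set of variable genes belonged to neither group. The inducible heat shock genes Hspa1a and Hspa1b, neighbours on chromosome 17 with nearly identical sequences whose reads may be split between them, stood at 3.33, 22.7, 2.18, 35.7 and 0.841 CPM and at 7.85, 39.9, 3.73, 64.1 and 1.82 CPM. Both were high in libraries 2 and 4. The constitutive chaperone Hspa8 did not follow them, with 3475, 2548, 2564, 3161 and 2403 CPM. Igkv4-62, a variable segment of the immunoglobulin kappa locus on chromosome 6, stood at 126 CPM in library 2, at 0.115 CPM in library 3 and at 0 in the other 3 libraries. Igkv4-54, another segment of that locus, had a mean under the floor and stood at 22.5 CPM in library 4 and at 0 elsewhere. Thbs1, which encodes thrombospondin of platelets, stood at 149, 22.9, 14.6, 55.7 and 13.1 CPM and was highest in library 1. Hp, which encodes haptoglobin, stood at 144, 107, 169.9, 215 and 16.5 CPM and was low in library 5.

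The least variable genes at 10 CPM or more were Tmx1, Pak2, Herpud2, Topors, Slx1b, Dock8, Aim2, Edc3, Cdc73 and Agpat2. Tmx1, a membrane thioredoxin, stood at 72.9, 72.4, 73.5, 72.4 and 73.4 CPM, and the kinase Pak2 at 169.9, 167, 169.6, 171 and 172 CPM. Their SDs of 0.01 were under the counting SDs of 0.044 and 0.029, so that with 5 libraries these genes cannot be ranked among each other.

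The same measure was taken in the 12 challenged libraries, as the SD within their groups, which the ranking had not used. The 88 variable genes had a median SD of 1.02 there, beside 0.26 for all 9999 genes. Of the 88, 45 (51.1%) had an SD above 1 within the challenged groups, beside 188 of all 9999 (1.88%). The floor of 10 CPM was set on the PBS mean alone. Some genes lay far lower in the challenged libraries, with medians of 1.94 CPM for C1qc and 2.62 CPM for Cd5l. Counting error adds more to the SD at such levels, and its part in these shares was not tested. Across genes, the SD among PBS libraries and that within the challenged groups had a Spearman correlation of 0.513 over 9999 genes, which were measured in the same libraries and are not independent. S100a9 had an SD of 1.99 with PBS and 2.00 within the challenged groups, Ltf 2.33 and 2.13, and Vcam1 1.29 and 1.43. Elane had 1.62 and 0.87. Igkv4-62 had 3.54 and 0.55.

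The baseline was then compared with the mean of the 4 challenged groups to show where it differs from the rest of the study. Positive log2 differences are higher with PBS. Many genes of resident macrophages, lymphoid progenitors, B cells and stem cells were higher in the PBS libraries, and several chaperones and Cebpb were lower. Of 14920 genes tested, 4342 (29.1%) were called by the edgeR quasi-likelihood test at an adjusted p-value below 0.05, with 2434 (16.3%) higher and 1908 (12.8%) lower with PBS. The higher calls made up 56.1%. With upper-quartile scaling they made up 71.5% of 4267, while the median log2 difference of all genes moved from 0.00 to 0.09, so that directions close to 0 depend on the scaling. The count was 2595 without PBS library 5, 2715 without library 2 and 2879 without library 3. The PBS libraries also had more genes detected, 18103 to 18778 against 16431 to 17717, and TMM factors of 1.02 to 1.12 against 0.799 to 1.04, and the part of these differences in the calls was not tested. The groups did not overlap in any library for 152 called genes (1.02% of those tested), 126 (0.845%) higher and 26 (0.174%) lower with PBS.

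Stem cell transcription factors were higher with PBS where they differed. Of 25 tested, 9 were called higher than the challenged groups and 0 lower, beside 16.3% and 12.8% of all genes. The median log2 difference was 0.23 beside 0.00 for all genes. Mecom stood at 27 ± 9.53 CPM with PBS, and at 1.67, 8.12 and 19.1 CPM (lowest, median and highest) in the 12 challenged libraries, a log2 difference of 1.69 ± 0.287 (SE; edgeR adjusted p = 0.00129). Hlf stood at 135 ± 41 CPM with PBS and at 19.8, 45.8 and 137 CPM in the challenged libraries, a difference of 1.49 ± 0.306 (edgeR adjusted p = 0.00326). The others were Mycn (1.61), Prdm16 (1.00), Meis1 (0.98), Hoxa10 (0.85), Erg (0.72), Hoxa9 (0.43) and Ikzf1 (0.29). The calls of the last of these rested on single libraries: Hoxa10 was not called without PBS library 5 (edgeR adjusted p = 0.0694), Ikzf1 without PBS library 2 (0.0692) or 5 (0.0827), and Hoxa9 without PBS library 1, 2, 3 or 5 (0.0502 to 0.108) or 1 of 2 libraries at 24 h. Lmo2 differed by 0.07 and Runx1 by 0.11, and neither was called. PBS and challenged libraries overlapped for Mecom and Hlf. Against LPS at 72 h alone, none of the 25 factors was called and their median was 0.08, beside 0.03 for all genes.

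Among lineage transcription factors, 11 of 24 were higher and 2 lower with PBS (median 0.54), beside 16.3% and 12.8% of all genes. The higher ones were of lymphoid and dendritic cells, namely Bcl11b (2.18), Pax5 (2.00), Ebf1 (1.83), Irf4 (1.67), Spib (1.47), Gata3 (1.44), Satb1 (0.88), Tcf7 (0.82), Foxo1 (0.73), Tcf4 (0.57) and Bcl11a (0.56). The lower ones were the myeloid factors Cebpb and Cebpa. Cebpb, which drives emergency granulopoiesis, stood at 6.94 ± 2.49 CPM with PBS and at 7.97, 15.7 and 27.9 CPM in the challenged libraries, a difference of -1.16 ± 0.261 (edgeR adjusted p = 0.00536). Cebpa differed by -0.54 (edgeR adjusted p = 0.0415) and was not called with upper-quartile scaling (0.0664), nor without PBS library 2 (0.115), 3 (0.0665) or 5 (0.0934) or any 1 of 7 challenged libraries. Pax5 was not called without PBS library 2, 3 or 5 (edgeR adjusted p = 0.052 to 0.0625), Foxo1 without library 5 (0.0594), Bcl11b without library 2 (0.0536), and Spib without PBS library 2 (0.119) or 4 (0.051) or library 2 of LPS at 72 h (0.0511). Without PBS library 2, 8 lineage factors were higher and 1 was lower. Spi1, Irf8 and Gata1 differed by -0.32, 0.52 and -0.77 and were not called.

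Receptors showed 8 higher and 2 lower of 30 (median 0.25), and surface markers 6 higher and 1 lower of 15. Of all genes tested, 16.3% were higher and 12.8% lower. Against LPS at 72 h alone, none of the 30 receptors was called and their median was -0.13. Il7r, the receptor of a lymphoid growth factor, stood at 31.9, 57.7, 30.1, 26.9 and 44.4 CPM with PBS and at 1.67, 10.8 and 38.7 CPM in the challenged libraries, a log2 difference of 1.73 ± 0.28 (edgeR adjusted p = 0.000932). Flt3 differed by 1.34 ± 0.278 (edgeR adjusted p = 0.00338). Il18r1, Tek, Tgfbr2, Il1r1 and Tgfbr1 were also higher. Csf2rb, the shared chain of the GM-CSF, IL-3 and IL-5 receptors, stood at 125 ± 16.6 CPM with PBS against 106, 216 and 553 CPM, a difference of -1.01 ± 0.227 (edgeR adjusted p = 0.00534). Ifngr1 was the other lower receptor (-0.35). Calls that rested on single libraries were those of Il1r1 (not called without PBS library 5, edgeR adjusted p = 0.0632), Tgfbr1 and Ifngr1, of which the latter pair were lost without any 1 of most libraries (up to 0.123 and 0.143). Of the surface markers, Fgd5, Flt3, Esam, Procr, Cd27 and Cd34 were higher and Cd47 was lower, and without PBS library 5 Cd34 (edgeR adjusted p = 0.0708), Fgd5 (0.0554), Esam (0.0518) and Procr (0.0512) were not called. Cd47 was not called with upper-quartile scaling (edgeR adjusted p = 0.144) or without PBS library 1, 2, 3 or 4 (0.0542 to 0.0674). Ly6a differed by -1.41 ± 0.546 and was not called (edgeR adjusted p = 0.0626). Tlr4 and Il10ra were not called, with differences of 0.23 ± 0.197 and 0.61 ± 0.224.

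Lymphoid priming genes were higher with PBS in 12 of 14 cases and lower in 1, beside 16.3% and 12.8% of all genes. Their median difference was 1.47, and the lower one was not called with upper-quartile scaling. Without PBS library 2, 11 were higher. Against LPS at 72 h alone the median of these genes was 0.09, with none called higher and 1 called lower. Dntt stood at 782 ± 149 CPM with PBS and at 16.6, 174 and 1353 CPM in the challenged libraries, a difference of 2.09 ± 0.547 (edgeR adjusted p = 0.0116). The highest challenged libraries thus lay above the PBS libraries, and the mean of Dntt was 49.9 ± 42.5 CPM with LPS at 24 h and 920.4 ± 469.9 CPM with LPS at 72 h. Notch1 stood at 197 ± 21.8 CPM against 40, 100.0 and 226 CPM, a difference of 0.99 ± 0.169 (edgeR adjusted p = 0.00128). Ccr9 (2.49) and Ly6d (2.07), which plasmacytoid dendritic cells also express, were among the higher ones. B-lymphoid markers were higher in 11 of 16 cases (8 without PBS library 2) and lower in none, with a median of 1.64, and 7 of 8 plasma cell markers were higher. Jchain stood at 615 ± 376 CPM with PBS against 15.5, 35.1 and 287 CPM, a difference of 3.27 ± 0.496 (edgeR adjusted p = 0.000723). Summed B-lymphoid markers ranged from 231 to 319 CPM with PBS, from 53.9 to 109 with LPS at 24 h, from 64.4 to 137 with LPS and antibody at 24 h, from 115 to 326 with LPS at 72 h and from 57.5 to 187 with LPS and antibody at 72 h. The part of mature lymphoid cells in these differences was not tested.

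**Figure D5:**
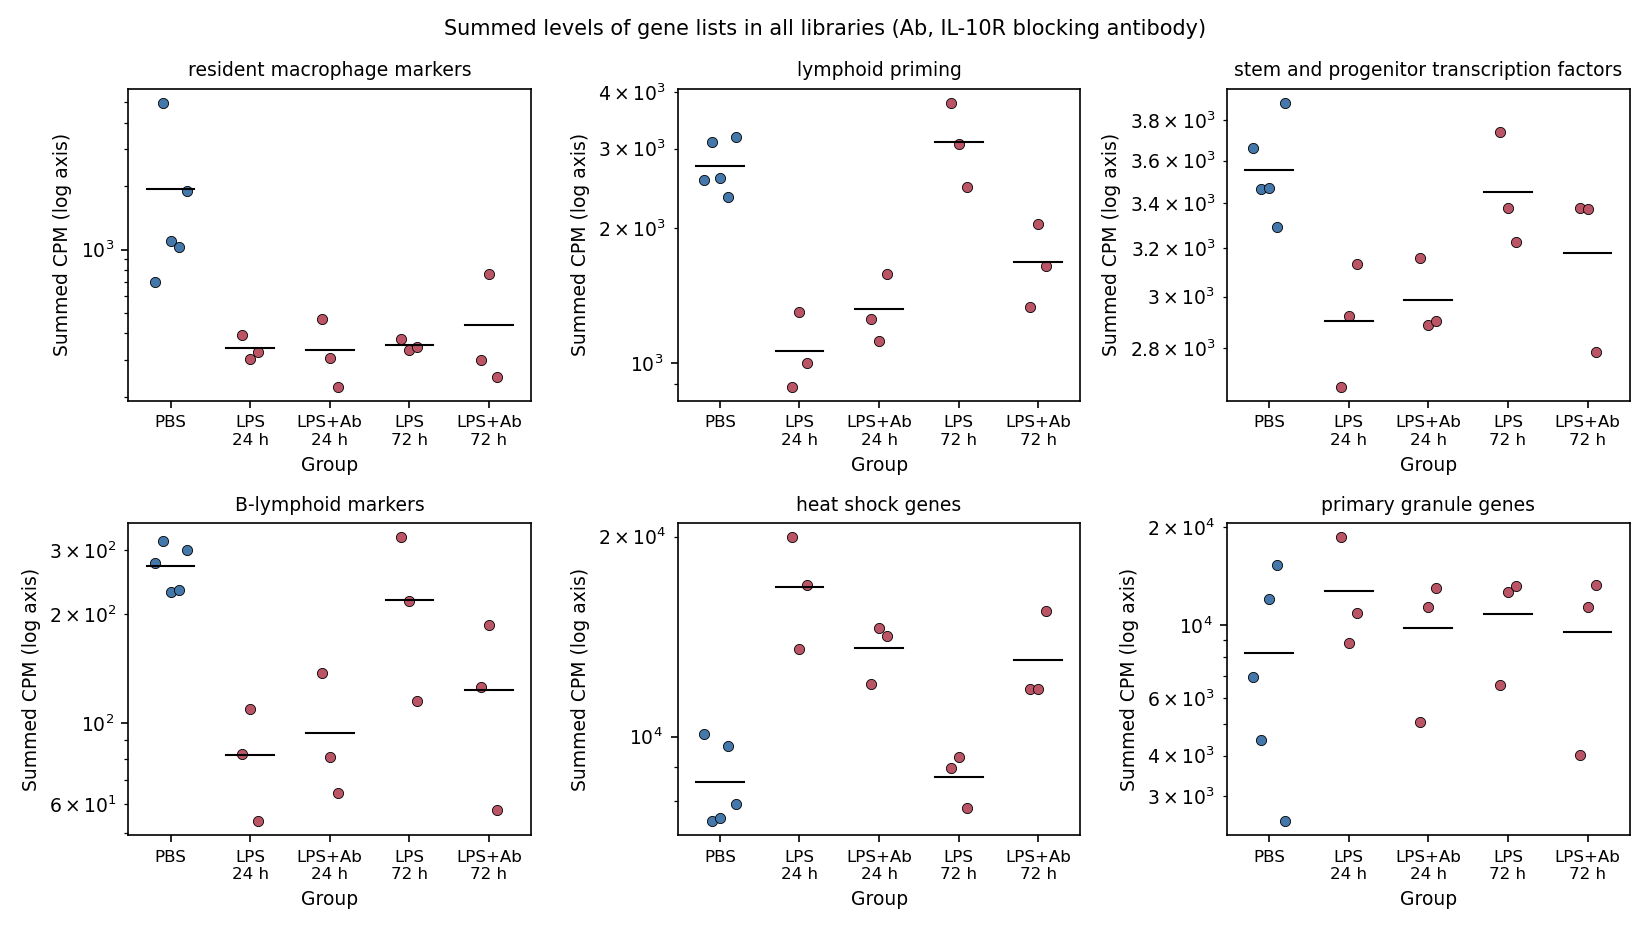
Summed CPM (log axes) of 6 gene lists in every library of the 5 groups, with PBS in blue, challenged groups in red and horizontal lines at group means. Resident macrophage markers are higher in the 5 PBS libraries (700.3 to 4957 CPM) than in all but the highest challenged library (766 CPM), and primary granule genes overlap between all groups.

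Resident macrophage markers had the greatest differences, with 17 of 19 higher with PBS and none lower, and a median log2 difference of 3.42. The share of all genes called higher was 16.3%. Without PBS library 2, 14 were called and the median was 2.67. C1qc stood at 84.1 ± 89.4 CPM with PBS and at 0.325, 1.94 and 22.4 CPM in the challenged libraries, a difference of 4.68 ± 0.701 (edgeR adjusted p = 0.000718). Vcam1 stood at 263 ± 248 CPM against 3.66, 8.01 and 109.6 CPM, a difference of 4.16 ± 0.607 (edgeR adjusted p = 0.000627). Without PBS library 2 the differences were 3.79 for C1qc and 3.43 for Vcam1, and without library 2 of LPS and antibody at 72 h they were 5.50 and 4.75. C1qc was higher in each PBS library than in all 12 challenged libraries, whereas Vcam1 overlapped. The 19 markers summed to 700.3 to 4957 CPM with PBS, to 300.5 to 394 with LPS at 24 h, to 223 to 466 with LPS and antibody at 24 h, to 335 to 376 with LPS at 72 h and to 249 to 766 with LPS and antibody at 72 h. The PBS library with the lowest sum thus lay below 1 challenged library. How far macrophages among the sorted cells set these values was not tested.

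Genes of the erythroid, megakaryocyte and granulocyte lineages gave mixed results. Of 20 erythroid genes, 6 were higher with PBS, beside 16.3% of all genes, and the median was -0.03. These 6 were genes of hemoglobin and of late red cells, namely Hbb-bs (3.57), Hba-a2 (3.11), Hba-a1 (2.60), Slc4a1 (2.33), Alas2 (2.28) and Hbb-bt (1.36), whereas the early genes Gata1, Klf1 and Car1 were not called (-0.77, -0.50 and -0.70). Reads of the near-identical globin genes may be split between them. Without library 1 of LPS and antibody at 24 h the differences were 4.25 for Hbb-bs, 3.82 for Hba-a2 and 3.51 for Hba-a1. Hba-a1 was not called without PBS library 5 (edgeR adjusted p = 0.0671), and Slc4a1 not without any 1 of the PBS libraries (0.0513 to 0.0945). Of 15 megakaryocyte genes, 8 were higher and Rap1b was lower (-0.23), beside 16.3% and 12.8% of all genes. The call for Rap1b was lost with upper-quartile scaling (edgeR adjusted p = 0.198). Thbs1 had a difference of 2.98, or 2.03 without PBS library 1. None of the 5 primary granule genes or the 9 late granule genes was called. The median of the late granule genes was 1.38 with all libraries and -1.07 without PBS library 2, so its direction rests on that library. Of the 18 genes of the whole neutrophil list, only Fcnb was called (2.22), and it was not called without PBS library 3 (edgeR adjusted p = 0.0923).

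Several chaperones were lower with PBS. Of 10 heat shock genes, 5 were lower, beside 12.8% of all genes, and none was higher, with a median of -0.52. Hspa8 stood at 2830.0 ± 463 CPM with PBS and at 3137, 4225 and 6556 CPM in the challenged libraries, a difference of -0.61 ± 0.127 (edgeR adjusted p = 0.00344). The others were Hspd1 (-0.85), Hspe1 (-0.80), Hsp90aa1 (-0.61) and Hsp90ab1 (-0.48), whereas the variable Hspa1a and Hspa1b were not called (-0.05 and 0.19). Of 18 interferon response genes, 2 were lower, Ifitm3 (-1.25) and Gbp3 (-1.07), with a median of -0.49, and Ifitm3 was not called without PBS library 3 (edgeR adjusted p = 0.0513). That count is close to the 12.8% of all genes called lower, and against LPS at 72 h alone the median of the list was 0.51 with none called. Of 82 cytosolic ribosomal protein genes, 4 were lower (median -0.22), a smaller share than the 12.8% of all genes. With upper-quartile scaling or without PBS library 2, 1 was lower. Of 16 genes of the G2 and M phases, 1 was lower, which is also a smaller share. This was Bub1 (-0.45), which was not called with upper-quartile scaling (edgeR adjusted p = 0.0707) or without PBS library 1, 2 or 5 (0.0711 to 0.0991). Of 15 quiescence genes, 6 were higher, including Foxo3 (0.58) and Btg2 (0.93), beside 16.3% of all genes.

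Among called genes of at least median expression whose libraries did not overlap, the 10 with the greatest positive differences were C1qc, Cd5l, C1qb, Pld3, Ctsb, Nynrin, Slc12a7, Smarca2, Smad3 and Nfic. Cathepsin B, encoded by Ctsb, stood at 314, 1063, 391, 444 and 499 CPM with PBS against 217, 275 and 313 CPM, a log2 difference of 1.01 ± 0.199 (edgeR adjusted p = 0.00264). Smarca2, a chromatin remodelling ATPase, stood at 111, 115, 110.3, 104 and 140.1 CPM with PBS against 44, 64.6 and 103 CPM, a difference of 0.77 ± 0.104 (edgeR adjusted p = 0.00045). Smad3, a mediator of TGF-beta signalling, stood at 70, 77.5, 73.8, 69.4 and 87.3 CPM against 31.7, 45.6 and 63 CPM, a difference of 0.69 ± 0.0985 (edgeR adjusted p = 0.000561). Smarca2 and Smad3 were even among the PBS libraries, with SDs of 0.16 and 0.13 on the log2 scale, unlike C1qc and Cd5l. The 10 with the greatest negative differences were Gbp3, Clec4e, Snrpb2, Ccz1, Lmo4, Stk19, Tbc1d22b, 1110059E24Rik, Tk1 and Ndufaf7. Clec4e, a pattern receptor also called Mincle, stood at 16.8, 13.7, 16.1, 12.3 and 16.8 CPM with PBS against 18.1, 28.7 and 39.1 CPM, a difference of -0.89 ± 0.138 (edgeR adjusted p = 0.000768). Tk1, the thymidine kinase of S phase, stood at 100.2 ± 3.79 CPM against 106, 131 and 171 CPM, a difference of -0.41 ± 0.107 (edgeR adjusted p = 0.0114). The call for 1110059E24Rik was lost with upper-quartile scaling (edgeR adjusted p = 0.0773) and without any 1 of the PBS libraries. Lmo4 and Ndufaf7 were lost without PBS library 5 (edgeR adjusted p = 0.0531 and 0.0538), Lmo4 also without library 3 (0.0503) and Ndufaf7 also without library 2 (0.052). Without PBS library 2 the differences were 3.50 for Cd5l, 3.45 for C1qb and 1.64 for Pld3.

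Of the 88 genes with an SD above 1 among PBS libraries, 87 were tested and 47 (54.0%) were called, 45 of them higher with PBS, beside 29.1% of all genes. Both measures use the PBS libraries, so this is a description and not independent of the ranking.

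LPS at 72 h was the challenged group that earlier results of these data had placed nearest to PBS. Of 14920 genes, 3 (0.0201%) were called, and all were lower with PBS. Of these, Lat2, a signalling adaptor, stood at 64.3 ± 8.04 CPM against 123 ± 21.3 CPM (n = 3 at 72 h), a difference of -0.94 ± 0.132 (edgeR adjusted p = 0.0214). Ms4a6b stood at 40.4 ± 8.55 CPM against 85.6 ± 17.9 CPM, a difference of -1.08 ± 0.167 (edgeR adjusted p = 0.0424). For these 3 genes no library of 1 group lay within the range of the other. That was so for 11.9% of all genes tested, 6.98% higher and 4.97% lower with PBS. An unadjusted p-value below 0.05 was reached by 1702 genes, and DESeq2 called 178. No gene was called without PBS library 1, 3, 4 or 5 or without library 2 of LPS at 72 h, 1 was called without library 3 of LPS at 72 h or of LPS at 24 h, and 36 were called without library 2 of LPS and antibody at 72 h.

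Of the members of the lists, 1 was called in this comparison. Hlf stood at 93.1 ± 38.8 CPM with LPS at 72 h beside 135 ± 41 with PBS, Meis1 at 80.2 ± 20 beside 101 ± 24.8, and Mecom at 15.1 ± 4.01 beside 27 ± 9.53 CPM. Flt3 stood at 496 ± 112 CPM beside 445 ± 84.7, and Adgrg1 at 931 ± 302 beside 1022 ± 134. C1qa stood at 1.86 ± 1.35 CPM with LPS at 72 h beside 94.5 ± 98.5 with PBS and was not called either. This comparison shares its PBS libraries with the one above, and at its size a missing call does not show that values were alike.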

How the data were processed

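Polyadenylated RNA of sorted bone marrow cells was sequenced in 17 libraries. The authors deposited whole-number counts per gene symbol, without normalization. The submitters' processing notes name HISAT2 2.2.0, Subread, featureCounts 2.1.1, R 4.3.2 and DESeq2 and the build GRCm38, with no role or order. The annotation, strand setting and handling of reads that match several genes are not given in the sources used here, so counts of overlapping genes and of similar family members are uncertain. All columns matched a label. The amounts of LPS and antibody are given in micrograms in one source and in milligrams in another, and neither was assumed.

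Counts were scaled with TMM factors in edgeR 4.0.16 (R 4.3.3), and CPM are shares of the scaled totals. Exon lengths are the union of a gene's exons in GENCODE M21 (GRCm38), which matched 34224 of 35321 symbols, and overlapping transcripts can lengthen them. Variation was the SD of log2(CPM + 0.5) over 5 libraries at a mean of at least 10 CPM, and the SD from counting alone was taken from Poisson counts. Genes were tested with edgeR's quasi-likelihood test after filterByExpr (minimum count 10, minimum total count 15) in 1 fit of all 17 libraries with a mean per group. Adjustment of p-values followed Benjamini and Hochberg over 14920 genes, and genes were called below 0.05. Intervals are SE of log2 differences. The scripts were tested on simulated data.

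Members, gene lists and comparisons were chosen with earlier results of these data known. Named genes were the 20 highest and the 25 most and 10 least variable genes, the 3 most abundant and the called members of lists, and the 10 greatest differences each way among called genes of at least median expression without overlap. Other examples of the lists were chosen after their values were seen. Alternatives were other scalings, filters, floors and pseudocounts, DESeq2 1.42.0, a replicate block and leaving out each library. Values of some members are not reported here, although counts and sums of lists include them.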

Additional observations from a re-analysis of the deposited data

Results flagged for a closer look

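In groups of 5, a library was looked at again when its gap to the nearest of the others, as a share of the whole range on the log2 scale, exceeded 0.71. Of 132 values tested in the PBS libraries 7 did so. For independent normal values chance gives about 1 in 20 groups, which for this many values is close to the number found. The values tested included genes chosen for their high SD, so that rate may not apply to them. Library 2 lay above the rest for Igkv4-62 (0.963), Retnlg (0.807), Rap1b (0.794), Lyz2 (0.791) and Ngp (0.745). Lyz2, the lysozyme of myeloid cells, stood at 194, 959, 271, 235 and 242 CPM in libraries 1 to 5, and Rap1b, a small GTPase of platelets, at 144, 176, 138, 138 and 136 CPM. Library 5 lay below the rest for Hp (0.725). Library 5 lay above the rest for the summed level of stromal and endothelial markers (0.749), with 202 CPM against 156 to 166 CPM. Cxcl12, the niche chemokine among those markers, stood at 13.1 CPM in library 5 and at 0.0628, 0.236, 1.43 and 0.188 CPM in libraries 1 to 4.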

How the results depend on the processing

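The order by mean CPM kept 18 to 20 of its first 20 genes without 1 library, and 10 per kb. The 88 genes with an SD above 1 became 191 with a floor of 1 CPM and 58 to 111 without 1 library. Of the 25 most variable genes, 12 remained with that floor, 12 by the coefficient of variation and 10 to 23 without 1 library. Against the 4 challenged groups, the 4342 calls ran from 2595 to 4739 without 1 library. Against LPS at 72 h, the 3 calls became 178 with DESeq2, 99 in a fit of the 2 groups only and 0 to 36 without 1 library. Same-numbered libraries of PBS and other groups had deviations that correlated from -0.106 to 0.246 and not always above 0.1, so the numbers were not taken to pair them, although the 3 of LPS at 24 h lay above it (0.172 to 0.212). A replicate block in the fit left 1910 calls against the 4 groups and 0 against LPS at 72 h, and of 153 single genes called against the 4 groups it ended 43 calls, those of Csf2rb (edgeR adjusted p = 0.0579), Dntt (0.0581), Hsp90aa1 (0.0652), Gbp3 (0.0702) and Hspe1 (0.0876) among them. The causes of these changes were not tested. None of the recomputed values of single genes and lists reversed a called direction: 9066 kept their call or, with no test, moved by less than 1 SD, 127 passed the threshold, 274 lost it, and 4 list sums moved with scaling by total counts alone. Of the kept calls, 42 log2 differences of 27 genes still moved by more than 1.5-fold. A value of Retnlg or Cd3e under about 0.25 CPM rests on 3 counts or fewer, and differences at such levels were not detectable at this depth.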

Other observations

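Among noncoding RNAs, Xist led the PBS libraries with 1278, 1124, 1506, 828 and 1358 CPM in libraries 1 to 5. Genes of dendritic cells of the plasmacytoid type summed to 441, 650.4, 327, 390.2 and 400.1 CPM, and 10 of 12 were highest in library 2. Siglech, their surface receptor, stood at 23.1, 57.1, 14.3, 19.1 and 16.8 CPM. By edgeR, 7 of 11 tested markers of this list were higher with PBS than in the challenged groups, and 5 of 11 without PBS library 2. Of 19 markers of T and natural killer cells, 10 were higher with PBS and none was lower, although most stood under 10 CPM. Without PBS library 2, 7 of the 18 then tested were higher. Among all genes tested, 16.3% were higher with PBS. Cd4, the T helper cell coreceptor, had a log2 difference of 2.80 (edgeR adjusted p = 0.00044). Of 13 genes of mast cells, basophils and eosinophils, 2 were higher with PBS, Ear2 and Il5ra. That count is close to the 16.3% of all genes called higher. Ear2 stood at 4.39, 34.1, 5.85, 5.82 and 9.25 CPM in libraries 1 to 5, and its difference of 3.07 was 2.17 without PBS library 2. Of 14 immediate early genes tested, 3 were higher with PBS, Nr4a1 (1.41), Zfp36 (0.96) and Klf2 (0.76), beside 16.3% of all genes, and none was lower. Without PBS library 2 there were 2, since Klf2 then differed by 0.36 (edgeR adjusted p = 0.214), and it was also not called without PBS library 4 or any 1 of 4 challenged libraries (0.0518 to 0.0555). Jun stood at 67.3 ± 9.3 CPM per kb in the PBS libraries. The 84 cytosolic ribosomal protein genes summed to 100265, 109224, 85191, 104432 and 90001 CPM, and 53 of the 83 with counts were highest in library 2 and 65 were lowest in library 3.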
